A study of Mus musculus with 6 samples.

Results

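The 10 genes followed here mark resident macrophages and monocytes: Aif1, Mpeg1, Cd68, Cd163, Mrc1, Spic, C1qa, C1qb, C1qc and Cd5l. They were taken by name, through every probe set whose annotation gives a member as its single gene symbol, which gave 13 of the 45037 probe sets on the arrays and 10 of 18193 named genes. C1qb had 3 probe sets, Spic had 2 and each other gene had 1. The cells were bone marrow cells of mice, sorted for Sca1, CD150 and CD48 and against mature lineage markers (Lin-), and the study calls them committed progenitors. The dKO mice carried MxCre, a Cre that interferon switches on in blood and other cells, with the floxed alleles c-myc f2 and N-myc f2. The Control mice carried the same floxed alleles and no MxCre, so an effect of the transgene cannot be told apart from the loss of both genes. All mice were 8 weeks old on a mixed background and received 2 daily treatments with pI-pC, a double-stranded RNA that induces interferon, the last one 3 days before the cells were taken. There were 3 dKO arrays of 3 pooled mice each and 3 Control arrays of 2 pooled mice each, and the question is which transcripts of these progenitors differ once Myc and Mycn are deleted.

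Resident macrophages live in the marrow for long periods, engulf dying cells and the nuclei that red cell precursors shed, and return the iron of haemoglobin to the blood. Monocytes arise from marrow progenitors and share part of the macrophage programme. A progenitor can transcribe some of these genes before it matures, and a sorted sample can also carry RNA of macrophages. In bulk RNA, fewer cells of a type and less RNA per cell cannot be told apart.

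Values are RMA values on a log2 scale, a summary of the probes of a probe set after background correction and normalization, so a difference of 1 is 2-fold. Array medians lay between 5.90 and 5.94. Myc stood at 7.77 ± 0.29 in dKO arrays and 10.74 ± 0.24 in Control arrays, and the Mycn probe set 1417155_at at 4.05 ± 0.67 and 9.33 ± 0.35 (mean ± SD, n = 3 each), while the brightest Mycn probe set differed by -0.83 with no call. The genes of the sort gate gave no call, with Cd48, which encodes CD48, at 11.43 ± 0.23 in dKO and 11.23 ± 0.12 in Control, and Slamf1, which encodes CD150, at 9.10 ± 0.61 and 8.31 ± 0.52. Ly6a, which encodes Sca1, was not analysed here. A pair of arrays stood apart by Xist, the RNA of the inactive X chromosome: over its 3 probe sets it lay between 7.17 and 11.32 on dKO 1 and Control 1, and between 3.73 and 5.86 on the other arrays. The tissue label of Control 1 also names long-term stem cells, while its title and gate match the other arrays.

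The members did not move as a block. Of 13 probe sets, 4 were lower in dKO and 1 was higher (limma, adjusted p under 0.05), whereas 1.78% and 1.83% of all 45037 probe sets were lower and higher. The lower ones were Aif1, Mpeg1, Cd163 and Cd68, and the higher one was a Spic probe set. The C1q genes, Cd5l and Mrc1 gave no call. The groups did not overlap for 4 probe sets lower in dKO and 2 higher, against 10.6% and 10.7% of all probe sets. The median difference, dKO minus Control, was 0.07 over the members' probe sets and 0.03 over all probe sets. With each gene read through its brightest probe set alone, it was -0.13 over the members and 0.05 over all genes. The number of lower probe sets was 1, that of Aif1, without Control 2 or without Control 3.

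The 300 bases around a RefSeq transcription start (250 before and 50 after, assembly GRCm38.p6, sense strand, 5′ to 3′) are shown for the genes with a call. Capitals mark GAGGAA on either strand, the core bound by PU.1, the transcription factor of the myeloid lineage.
Aif1, chr17:35176003-35176302 (-): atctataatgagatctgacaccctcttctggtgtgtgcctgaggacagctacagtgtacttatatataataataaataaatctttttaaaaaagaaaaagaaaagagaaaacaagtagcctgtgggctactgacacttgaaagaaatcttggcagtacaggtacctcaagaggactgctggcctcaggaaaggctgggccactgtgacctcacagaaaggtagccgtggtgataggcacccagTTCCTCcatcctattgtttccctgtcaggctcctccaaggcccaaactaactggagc
Mpeg1, chr19:12460520-12460819 (+): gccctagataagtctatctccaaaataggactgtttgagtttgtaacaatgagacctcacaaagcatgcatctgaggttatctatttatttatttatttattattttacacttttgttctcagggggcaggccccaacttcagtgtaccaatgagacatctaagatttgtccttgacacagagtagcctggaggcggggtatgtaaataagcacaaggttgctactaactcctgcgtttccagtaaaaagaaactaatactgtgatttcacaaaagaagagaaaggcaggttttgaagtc
Cd163, chr6:124304401-124304700 (+): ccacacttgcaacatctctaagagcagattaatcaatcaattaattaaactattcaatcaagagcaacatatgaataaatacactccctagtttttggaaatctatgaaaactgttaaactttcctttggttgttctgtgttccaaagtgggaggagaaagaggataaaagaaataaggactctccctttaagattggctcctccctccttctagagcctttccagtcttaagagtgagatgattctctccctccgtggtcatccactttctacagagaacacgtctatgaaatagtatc
Cd68, chr11:69666121-69666420 (-): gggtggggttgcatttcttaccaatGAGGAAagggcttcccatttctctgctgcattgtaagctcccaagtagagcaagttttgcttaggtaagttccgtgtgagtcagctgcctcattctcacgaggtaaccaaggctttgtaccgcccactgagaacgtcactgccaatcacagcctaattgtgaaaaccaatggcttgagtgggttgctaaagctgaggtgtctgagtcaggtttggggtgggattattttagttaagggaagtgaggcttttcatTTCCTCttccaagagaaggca
Spic, chr10:88682974-88683273 (-): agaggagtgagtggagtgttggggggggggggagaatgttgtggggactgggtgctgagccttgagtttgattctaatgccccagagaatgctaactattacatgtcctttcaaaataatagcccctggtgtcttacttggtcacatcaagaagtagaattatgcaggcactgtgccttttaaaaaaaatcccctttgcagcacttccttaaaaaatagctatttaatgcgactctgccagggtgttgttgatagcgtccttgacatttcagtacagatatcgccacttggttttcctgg
Among the called genes, GAGGAA stood in the windows of Aif1 and Cd68 and not in those of Mpeg1, Cd163 and Spic. Of the 10 members, 9 had a window in the table, and 6 of these held the motif, as did 28.3% of all 32851 windows of this length. CACGTG, the E-box that MYC binds with MAX, stood in 0 of the 9 and in 7.15% of all windows. The probe sets have no coordinates in the files, so these windows describe the genes and not what the arrays measured.

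Aif1, which encodes IBA1, an actin-binding protein of macrophages and microglia, had the largest fall among the members. Its only probe set, 1418204_s_at, read 6.45, 6.05 and 6.05 on the dKO arrays and 8.51, 8.93 and 8.80 on the Control arrays. The ending _s_at marks a probe set whose probes can match further transcripts. The groups were separated by 2.06 log2 units, several times the spread within either one. Aif1 was 5.90-fold lower in dKO, a log2 difference of -2.56 ± 0.20 (SE; limma, adjusted p = 0.00059), and with each array left out in turn its adjusted p stayed between 0.0022 and 0.0058.

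Mpeg1 encodes perforin-2, a pore-forming protein that macrophages use against engulfed bacteria. It read 8.10, 9.20 and 9.65 on the dKO arrays and 10.89, 11.35 and 11.29 on the Control arrays. All dKO arrays lay below all Control arrays, but they were spread over 1.55 log2 units, with dKO 1 lowest, against 0.46 in Control. Mpeg1 fell by 2.19 ± 0.36, or 4.56-fold (limma, adjusted p = 0.016). The call was lost without Control 2 (adjusted p = 0.073) and without Control 3 (adjusted p = 0.062), with differences of -2.10 and -2.13.

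Cd68, a lysosomal membrane glycoprotein long used to stain macrophages, had the smallest of the called differences. Its values were 6.71, 6.29 and 6.58 on the dKO arrays and 7.40, 7.47 and 7.40 on the Control arrays. The Control arrays lay within 0.07 of each other, and the lowest of them was 0.69 above the highest dKO array. Cd68 fell by 0.90 ± 0.18, or 1.86-fold (limma, adjusted p = 0.031). It kept that call only without dKO 3 (adjusted p = 0.0498) among the 6 fits that leave out 1 array, the others giving up to 0.125.

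The scavenger receptors differed from each other. Cd163, a receptor through which macrophages take up haemoglobin, read 7.39, 6.78 and 7.74 in dKO and 8.76, 9.73 and 9.24 in Control. No dKO array reached the lowest Control array, Control 1, which was 1.02 above them. Cd163 fell by 1.94 ± 0.31, or 3.84-fold (limma, adjusted p = 0.014), and missed the threshold without Control 2 (adjusted p = 0.056) and without Control 3 (adjusted p = 0.053). Mrc1, the mannose receptor CD206, read 4.70, 5.71 and 5.88 in dKO and 6.12, 5.59 and 5.41 in Control. The groups overlapped, the lowest array being dKO 1 and the highest Control 1. Its difference of -0.27 ± 0.33 had a 95% interval of -1.02 to 0.48 and gave no call (limma, adjusted p = 0.78).

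Spic encodes an ETS factor related to PU.1 that iron-recycling macrophages of spleen and marrow require, and it was the member that moved upwards. The probe set 1449134_s_at read 6.07, 5.64 and 5.91 on the dKO arrays and 4.29, 4.75 and 4.17 on the Control arrays. Its means, 5.87 in dKO and 4.41 in Control, were dim, below the median of every array. The dKO arrays were all higher, by at least 0.89, and this probe set rose by 1.47 ± 0.21, or 2.77-fold (limma, adjusted p = 0.0087). The call held in all 6 fits that leave out 1 array (adjusted p up to 0.043) and was lost without Control 1 and dKO 1 together (adjusted p = 0.093, difference 1.31). The probe set 1418555_x_at, dimmer still, read 5.28, 4.48 and 5.30 in dKO and 4.43, 4.19 and 3.45 in Control. Here too no arrays overlapped, but by 0.05 only, and the difference of 1.0 ± 0.31 gave no call (limma, adjusted p = 0.146). Names ending in _s_at or _x_at mark probe sets whose probes can match further transcripts.

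**Figure D1:**
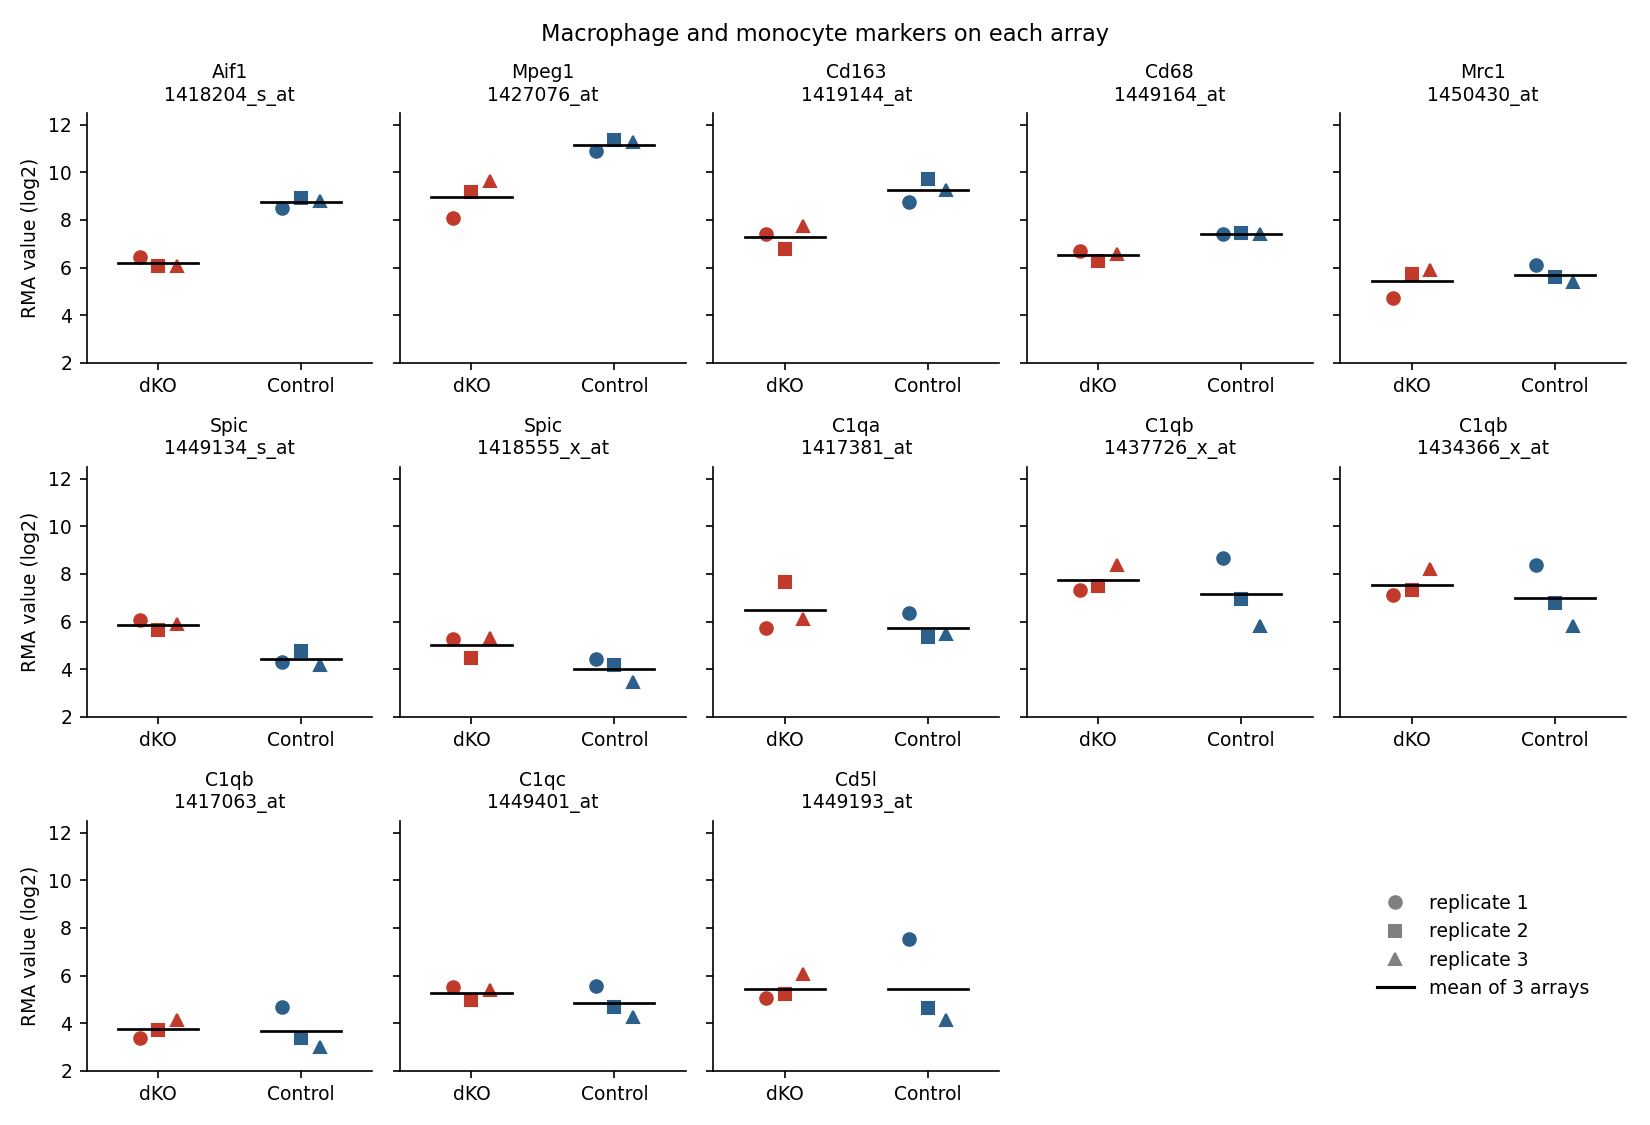
RMA values (log2, vertical axis) of the 13 probe sets on the 3 dKO arrays (red) and the 3 Control arrays (blue). Symbols give the replicate number and bars the mean of 3 arrays. The groups are apart for Aif1, Mpeg1, Cd163, Cd68 and both Spic probe sets, and Control 1 (circle) is the highest Control array for every C1q probe set and for Cd5l.

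C1qa, C1qb and C1qc encode the chains of C1q, the molecule that starts the classical complement pathway and that macrophages secrete. In the RefSeq table they lie next to each other on chromosome 4, with 0 other genes between them. Their 5 probe sets were all higher on average in dKO, by 0.07 to 0.75, and none gave a call (limma, adjusted p from 0.53 to 0.97). C1qa read 5.71, 7.65 and 6.10 in dKO and 6.36, 5.37 and 5.48 in Control. Its high point was dKO 2 and the next was Control 1. The difference was 0.75 ± 0.48, with a 95% interval of -0.35 to 1.85.

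For C1qb the array that stood out was Control 1. The probe set 1437726_x_at read 7.32, 7.52 and 8.39 on the dKO arrays and 8.68, 6.96 and 5.82 on the Control arrays. Control 1 lay above all other arrays, and Control 2 and Control 3 lay below all dKO arrays, so that the Control arrays spread over 2.87 log2 units against 1.07 in dKO. The probe set 1434366_x_at had the same order on Control 1, 2 and 3, at 8.36, 6.77 and 5.83, after 7.10, 7.34 and 8.21 in dKO. The differences of the pair were 0.59 ± 0.63 and 0.56 ± 0.58, with intervals that span 0. The dim probe set 1417063_at read 3.39, 3.71 and 4.11 in dKO and 4.67, 3.36 and 2.98 in Control, again with Control 1 on top.

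C1qc read 5.52, 4.95 and 5.38 in dKO and 5.57, 4.69 and 4.25 in Control. The arrays overlapped through Control 1 alone, and the difference of 0.44 ± 0.33 had a 95% interval of -0.31 to 1.19. Cd5l, a protein that macrophages secrete and that protects them from apoptosis, had the widest spread of all members. It read 5.05, 5.20 and 6.07 in dKO and 7.54, 4.63 and 4.14 in Control. Control 1 was 3.15 log2 units, or 8.91-fold, above the mean of Control 2 and Control 3. The difference of the group means was 0.01 ± 0.77, with a 95% interval of -1.75 to 1.77, so neither a clear rise nor a clear fall was detectable at this spread.

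Control 1 was the highest Control array for all 8 member probe sets without a call, and the lowest for 3 of the 5 with one, those of Aif1, Mpeg1 and Cd163. Over all 13 member probe sets it was the highest Control array for 8, and over all probe sets on the arrays for 35.6%. The calls come from the same values, and a high Control 1 widens the Control spread, which can prevent a call. The split by call is thus not a separate observation. The 8 also include all 5 C1q probe sets, so they are not 8 separate genes. The fit without Control 1 is therefore given as a description: leaving out the array that is highest for these probe sets raises their differences by construction. Without Control 1, all 5 C1q probe sets, Cd5l and both Spic probe sets were higher on every dKO array than on Control 2 and Control 3, which was so for 15.5% of all probe sets. Without it, 4 members were lower on every dKO array, against 14.5% of all probe sets. The differences were then 1.06 ± 0.51 for C1qa, 1.35 ± 0.42 for the brightest C1qb probe set, 0.81 ± 0.26 for C1qc and 1.06 ± 0.34 for Cd5l. None of them passed (limma, adjusted p = 0.44, 0.189, 0.205 and 0.204). Without Control 3 instead, the signs of all 3 C1qb probe sets and of Cd5l turned, with differences of -0.28, -0.018, -0.081 and -0.64, and C1qa and C1qc stood at 0.62 and 0.15. In the fit without Control 1, 3 members were lower, Aif1, Mpeg1 and Cd163, and 1 was higher, Spic, against 1.02% of all probe sets in each direction.

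**Figure D2:**
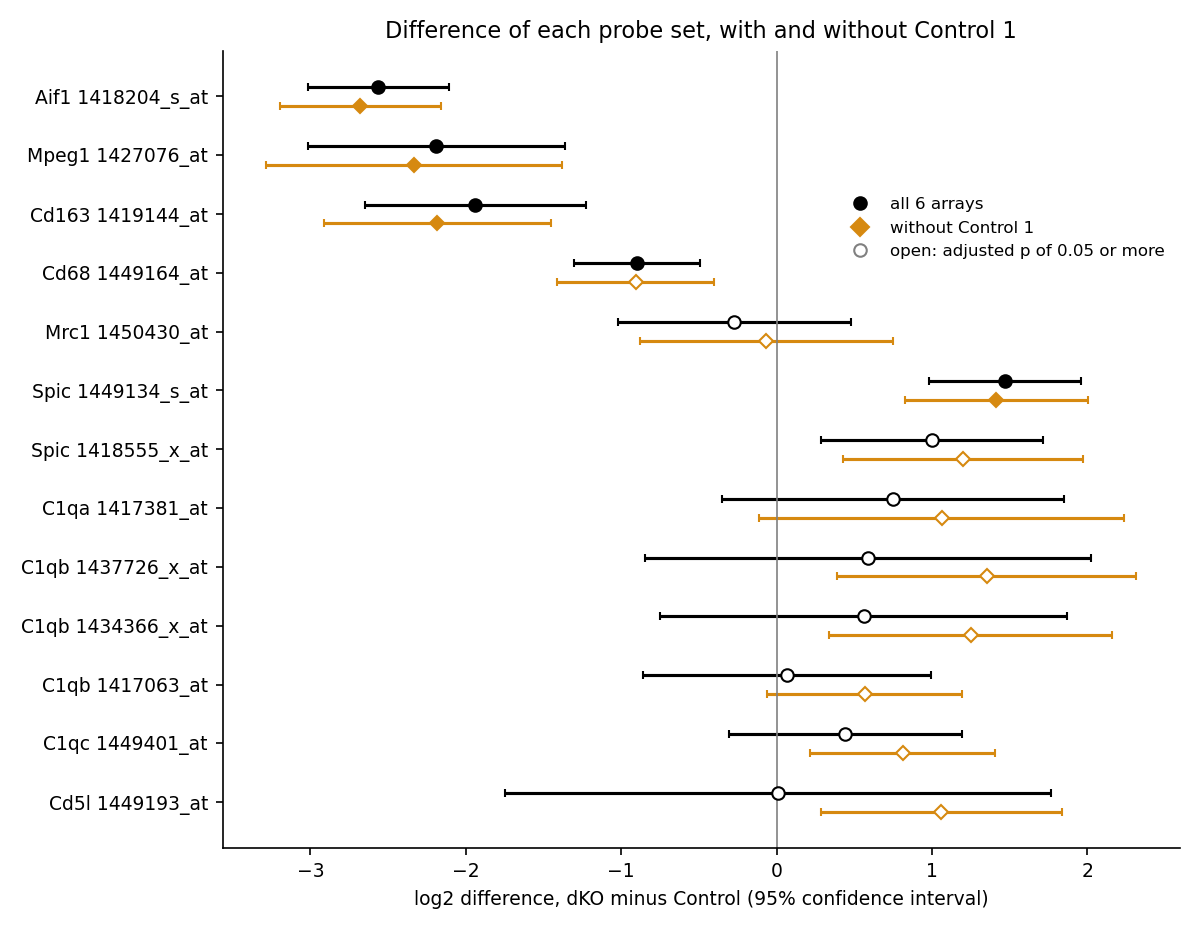
Log2 difference, dKO minus Control (horizontal axis), with its 95% confidence interval for each of the 13 probe sets, from all 6 arrays (black circles) and without Control 1 (orange diamonds). Filled symbols have an adjusted p under 0.05. Cd5l stands at 0.01 with Control 1 and at 1.06 without it, while Aif1, Mpeg1 and Cd163 stay below 0.

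The profile of C1q over the 6 arrays was taken as the mean of the brightest probe set of each chain, centred on its own mean. It stood at -0.02, 0.50 and 0.41 on the dKO arrays and at 0.67, -0.53 and -1.03 on the Control arrays. Among the members outside C1q, Cd5l was nearest to it (Pearson r = 0.82), Mrc1 and Spic had r of 0.46 and 0.43, and Aif1, Cd68, Mpeg1 and Cd163 had negative r, from -0.45 to -0.63. Among 4915 other genes that ranged over at least 1 log2 unit, the nearest were Mc5r (r = 0.96), Trim5 (0.96), Airn (0.95), Nr2e1 (0.93) and Perp (0.92). These are descriptions over 6 arrays that share their group structure.

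Other genes of these cells were read through 1 probe set per gene, the brightest, with the same adjusted p. By that count 2.03% of all 18193 genes were lower in dKO and 2.45% higher, and the median difference was 0.05. An unadjusted p under 0.05 was reached by 17.3% of all genes, the share against which such counts in each list are to be read. Of 19 monocyte genes, 9 were lower and 1 was higher, with a median of -0.99. Klf4, a transcription factor that monocytes need, read 5.78, 5.97 and 6.12 in dKO and 10.09, 11.08 and 10.79 in Control. F13a1, a coagulation factor subunit made by monocytes, averaged 6.19 ± 0.29 in dKO and 9.99 ± 0.68 in Control (SD, n = 3 each). Ly86, a partner of a Toll-like receptor relative, fell by 3.10 ± 0.21 (limma, adjusted p = 0.00035). The higher gene was Emilin2, a matrix glycoprotein, which rose by 2.16 ± 0.23 (limma, adjusted p = 0.0026).

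In these 3 lower genes and in Emilin2 the dKO and Control arrays did not overlap. The remaining lower genes were Ms4a6c, Fn1, Irf8, Csf1r, Lyz2 and Lyz1, the last 2 being near-identical lysozyme copies that the arrays may not separate. The Lyz1 call is that of 1436996_x_at (-1.46). Of its other probe sets, 1439426_x_at was also lower (-1.45) and 1450822_at gave no call (-0.22; limma, adjusted p = 0.68). The dimmer Ms4a6c probe set 1457725_at gave no call (-1.07; limma, adjusted p = 0.22), while the dimmer ones of Fn1 (-1.38) and Irf8 (-2.04) were also called lower. Csf1r, the receptor through which monocytes and macrophages receive their growth factor and a gene singled out after its values were seen, read 8.21, 7.55 and 8.07 in dKO and 9.55, 10.99 and 10.61 in Control. It fell by 2.44 ± 0.36 (limma, adjusted p = 0.0093), and its other probe sets gave -2.05 and -0.55, the last without a call. The 9 without a call were Ccr2, Cx3cr1, Tyrobp, Cd14, Ms4a6d and Fcgr3, lower on average, and S100a4, Vcan and Itgam, higher on average. Control 1 was the highest Control array for 1 of the 19 monocyte genes.

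Of 19 other tissue macrophage genes, several were dim, such as Vsig4 (mean 2.61 in dKO and 2.50 in Control) and Cd209b (3.14 and 3.10). RMA shrinks differences at such levels. In this list 0 were called in either direction by limma, 4 had an unadjusted p under 0.05, near the share of all genes, and the median difference was 0.02. The 4 were Maf (1.32 ± 0.40), a transcription factor of macrophages, Axl (-0.61 ± 0.20), a receptor for dying cells, Lgmn (-1.28 ± 0.46), a lysosomal protease, and Fcgr1 (-0.48 ± 0.20), the high-affinity IgG receptor. Maf read 7.97, 8.78 and 8.46 in dKO and 8.01, 6.32 and 6.92 in Control. Control 1 was within the dKO range and the other Control arrays were below it. Without Control 1, Maf was called higher, with a difference of 1.78 ± 0.30 (limma, adjusted p = 0.029). The 6 Maf probe sets ran from 0.08 to 1.76, and the dimmer 1444073_at, with a difference of 1.33, was called higher on all 6 arrays (limma, adjusted p = 0.025).

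Control 1 was the highest Control array for 12 of the 19 tissue macrophage genes, against 35.5% of all genes. Examples, picked after their values were seen, were Vcam1, the adhesion molecule of marrow island macrophages, at 6.32, 6.77 and 6.52 in dKO and 6.71, 5.14 and 5.60 in Control, and Adgre1, a surface receptor of macrophages, at 4.59, 4.35 and 4.28 in dKO and 5.43, 4.46 and 4.52 in Control. In both, by the brightest probe set, Control 1 was well above the other Control arrays. The other Vcam1 probe sets read 6.91, 5.14 and 4.38 (1448162_at) and 6.06, 5.59 and 5.96 (1451314_a_at) in Control. For Marco, Msr1 and Fcgr1 of the same list, Control 1 was the lowest Control array. The mean of the list ran from 5.01 to 5.37 over the dKO arrays and from 5.02 to 5.42 over the Control arrays, highest on Control 1. Its part in the C1q and Cd5l values of Control 1 was not tested.

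**Figure D3:**
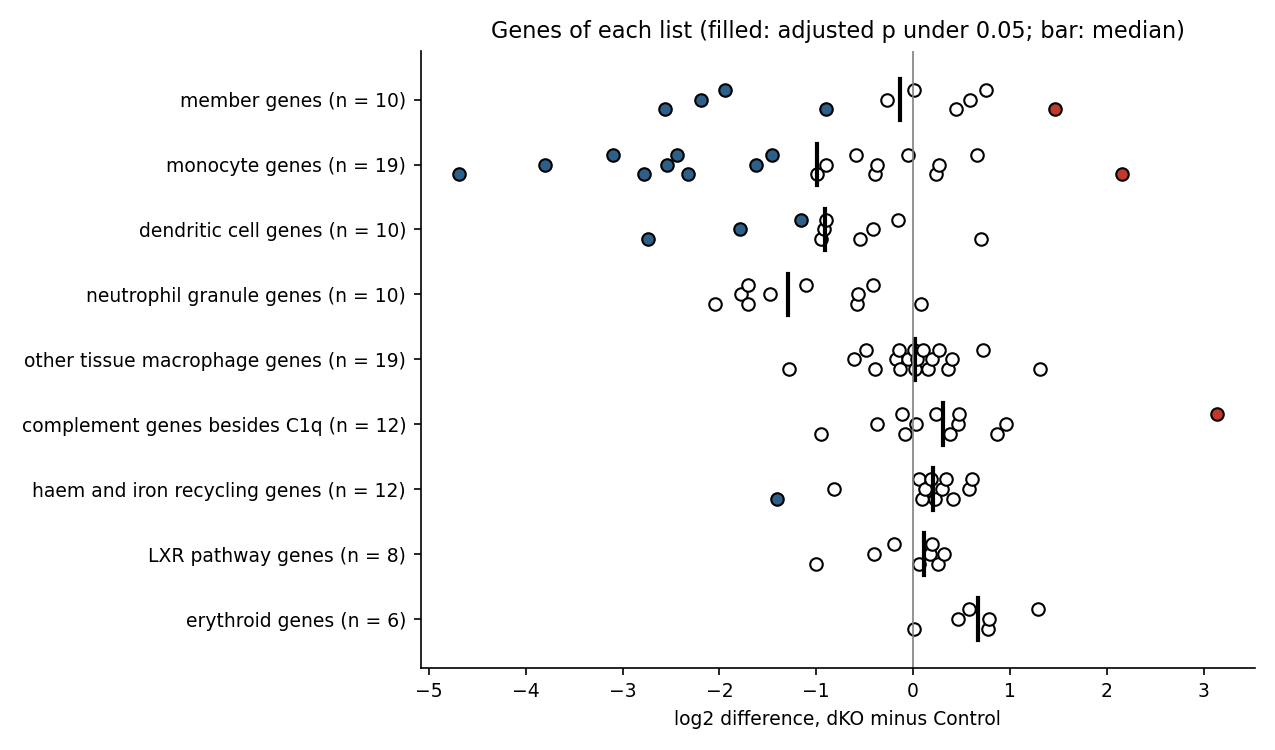
Log2 difference, dKO minus Control (horizontal axis), of each gene in 9 lists by its brightest probe set. Filled points have an adjusted p under 0.05 (red higher, blue lower in dKO) and bars mark the list's median. The 10 members spread to both sides of 0, the monocyte genes lie mostly below it, with a median of -0.99, and the other tissue macrophage genes centre at 0.02.

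Genes that work beside the members gave few calls. Of 12 complement genes besides C1q, 1 was higher, C3ar1, the receptor for the C3a fragment, and 0 were lower. An unadjusted p under 0.05 was reached by 5, more than the share of all genes (17.3%), and the median was 0.31. C3ar1 read 8.28, 8.82 and 7.09 in dKO and 4.86, 4.96 and 4.97 in Control. Every dKO array was over 2 log2 units above every Control array, and it rose by 3.14 ± 0.38, or 8.80-fold (limma, adjusted p = 0.0041). Next by p were Cd93, once described as a C1q receptor (-0.95 ± 0.24), C5ar1, the C5a receptor (0.87 ± 0.23), and Calr, a chaperone that C1q binds on dying cells (0.46 ± 0.17), none of them called by the brightest probe set. Another of the 5 Cd93 probe sets, 1441907_s_at, was lower (-1.11 ± 0.16; limma, adjusted p = 0.0088). The mean of the list lay between 7.25 and 7.43 on the dKO arrays and between 6.85 and 6.997 on the Control arrays. Without C3ar1 the arrays overlapped, at 7.10 to 7.35 in dKO and 7.03 to 7.18 in Control.

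Of 12 genes of haem and iron recycling, 1 was lower and 0 were higher, with 2 at an unadjusted p under 0.05, near the share of all genes, and a median of 0.21. The lower one was Hp, which encodes haptoglobin, a protein that binds haemoglobin. It read 5.45, 5.69 and 5.84 in dKO and 6.73, 7.72 and 6.73 in Control, so no arrays overlapped. Hp fell by 1.40 ± 0.28 (limma, adjusted p = 0.033), a call lost in 5 of the 6 fits that leave out 1 array and kept without Control 1 (adjusted p = 0.049). Blvrb (0.58 ± 0.20), Lrp1 (-0.81 ± 0.37) and Hmox1 (0.42 ± 0.19), which encode a biliverdin reductase, the receptor for haem bound to haemopexin, and haem oxygenase, gave no call.

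Of 8 genes of the LXR pathway, the sterol receptors known to switch on Cd5l, 0 were called by limma and 1 had an unadjusted p under 0.05, again no more than the share of all genes. This was Abca1, a cholesterol exporter, at -0.999 ± 0.322 (adjusted p = 0.157). Abcg1 (-0.41 ± 0.23), Mylip (0.32 ± 0.23) and Lpcat3 (0.25 ± 0.21) followed. The other Abca1 probe sets were also lower without a call, 1450392_at by -1.80 ± 0.44 (limma, adjusted p = 0.0685) and 1421839_at by -0.62 ± 0.27. The list's median was 0.12.

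Genes used as markers of other cells were read too, although the lineage markers of the gate would remove most mature cells. Progenitors can transcribe some of these genes themselves, so the lists do not show that such cells were present. Of 10 dendritic cell genes, 3 were lower (Flt3, Cd209a and Bst2) and 0 higher, with a median of -0.91. A dimmer Zbtb46 probe set, 1453856_at, was also lower (-1.64; limma, adjusted p = 0.015). The mean of the list ran from 6.87 to 7.20 over the dKO arrays and from 7.79 to 8.08 over the Control arrays. Of 10 neutrophil granule genes, 0 were called by limma and 6 had an unadjusted p under 0.05, more than the share of all genes (17.3%). Their median difference was -1.29, and the means of the list were 5.49 to 7.04 in dKO and 7.37 to 7.72 in Control. The lowest was dKO 1, which also had the lowest Mpeg1 and Mrc1. Of 6 erythroid genes, 0 were called by limma and 4 had an unadjusted p under 0.05, more than the share of all genes (17.3%). Their median difference was 0.68, and the means of the list were 8.05 to 8.62 in dKO and 7.55 to 7.66 in Control. Of 7 B cell genes, 1 was lower, Blnk, the median was 0.10 and the means overlapped at 5.64 to 6.05 in dKO and 5.87 to 6.22 in Control. No marker was at 0, which RMA values do not reach. What part these cells had in the values of Aif1, Mpeg1, Cd163, Cd68 and Spic was not tested.

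**Figure D4:**
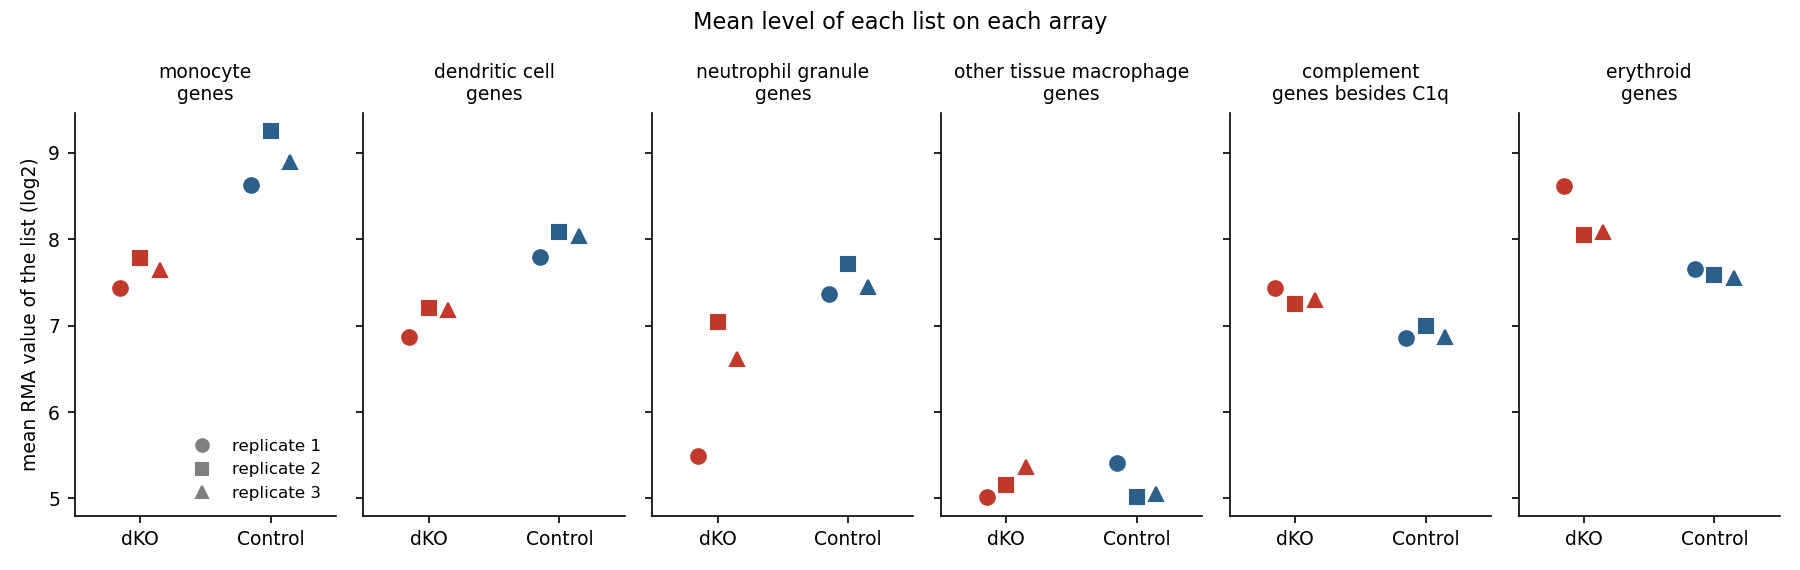
Mean RMA value (log2, vertical axis) of 6 lists on each dKO array (red) and Control array (blue), with symbols for the replicate number. The means of monocyte, dendritic and neutrophil granule genes lie lower on all dKO arrays and those of erythroid and complement genes higher, though 0 neutrophil granule, 0 erythroid and 1 complement gene passed the test by brightest probe set. For other tissue macrophage genes Control 1 (circle) is the highest array at 5.42.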

How the data were processed

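Gene expression was measured on 6 Affymetrix mouse arrays. Trizol RNA went through 2 rounds of Nugen amplification and biotin labelling, per the labels' protocols. The deposited log2 values are the authors' RMA output, per the submitters' processing notes. The RMA version, and whether all arrays were processed together, is not given in the sources used here. RMA shrinks the differences of dim probe sets, no detection calls were used, and precision is limited by the number of arrays.

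Of 45101 deposited rows, 64 Affymetrix controls were left out. The platform annotation gave 34945 of the 45037 probe sets a single symbol, 932 several and 9160 none, and 34741 were matched to RefSeq (GRCm38.p6) to update symbols. Groups came from the sample titles. The R package limma 3.58.1 (R version 4.3.3) fitted all probe sets with a group term alone and moderated variances (eBayes, two-sided p), with Benjamini-Hochberg adjustment over the whole table and a threshold of 0.05. Errors are limma standard errors or SDs over 3 arrays, each a separate pool. The fit was tested on simulated data.

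Named were all member probe sets, the targeted genes, up to 4 genes with the smallest p of each list, and the 5 genes most like C1q. Beyond these, the text names the other called list genes, further probe sets, the monocyte genes without a call, and examples picked after their values were seen. The members and lists were chosen with earlier results of these data known. List genes without a single-symbol probe set were not analysed here. Deviations from the group means correlated weakly between same-numbered arrays (r = 0.06, -0.03 and 0.01), so the numbers were not taken as pairs, although both arrays numbered 1 had high Xist. Promoter sequences are from RefSeq. Alternatives covered filters, the unit of the fit, scaling, variances, weights per array, the replicate number as a block, thresholds and left-out arrays. Figures were drawn with matplotlib 3.10.9.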

Additional observations from a re-analysis of the deposited data

How the results depend on the processing

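In every alternative run that keeps their probe sets, Aif1 kept its direction and its call, and C1qa, C1qc and both Spic probe sets kept their direction. The members higher in dKO (1) numbered 0 without probe sets named _x_at, _s_at or _a_at and 0 without Control 1 and dKO 1 together. The members lower in dKO (4) numbered 1 at an adjusted p under 0.01 and between 1 and 4 with 1 array left out. They numbered 3 without probe sets named _x_at, _s_at or _a_at, a setting that leaves out the Aif1 probe set. The probe sets called in all (1622) numbered 2509 with array weights, 2666 at an adjusted p under 0.1, 515 at one under 0.01, 565 without Control 1 and dKO 1 together, and between 661 and 1472 with 1 array left out. Without 1 array the C1qb differences ran between -0.28 and 0.57 (1417063_at), -0.02 and 1.25 (1434366_x_at), and -0.08 and 1.35 (1437726_x_at), Cd5l between -0.64 and 1.06, and Mrc1 between -0.50 and 0.09. The signs turned for 1417063_at without dKO 3 (-0.12), Control 2 (-0.08) or Control 3 (-0.28), for 1434366_x_at (-0.018) and 1437726_x_at (-0.081) without Control 3, for Cd5l without dKO 3 (-0.30), Control 2 (-0.39) or Control 3 (-0.64), and for Mrc1 without dKO 1 (0.092) or without dKO 1 and Control 1 together (0.30). Other tissue macrophage genes higher (0) numbered 1 with the mean of a gene's probe sets, without Control 1, and without Control 1 and dKO 1 together, and 0 to 1 with 1 array left out. Haem and iron genes lower (1) numbered 2 with the mean of a gene's probe sets, 0 at an adjusted p under 0.01 and without Control 1 and dKO 1 together, and 0 to 1 with 1 array left out. Complement genes higher (1) numbered 2 with array weights and at an adjusted p under 0.1. Complement genes lower (0) numbered 1 with 1 probe set per gene, the mean of probe sets, trend and robust variances, array weights, and an adjusted p under 0.1. LXR genes lower (0) numbered 1 with the mean of probe sets. The cause of these changes was not tested, beyond the fewer arrays or probe sets of the settings that leave some out.

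With the replicate number as a block, 1252 probe sets were called, and Cd68 (adjusted p = 0.073) was the 1 member whose call changed, leaving 3 lower. Not every array correlated best with its own number, and the numbers pair nothing by the labels.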
